A study of Mus musculus with 401 samples.

Results

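Cumulus cells of mice that had received a hyperovulation injection were compared with cumulus cells of mice that had not. The comparison covered every cumulus cell library of 2-month-old mice in the second sequencing set, chosen by the age and hyperovulation fields of the sample names. It held 56 of the 401 libraries of the series, 24 from mice with hyperovulation and 32 from mice without. All mice were B6D2F1 (a cross of C57BL/6 and DBA/2), fed ad libitum. In the 5 mice with hyperovulation (2mo1, 2mo2, 2mo34, 2mo35 and 2mo36), equine chorionic gonadotropin or CARD HyperOva was injected 48 h before the ovaries were taken, and no ovulatory gonadotropin was given. Which of these agents each mouse received is not given, and CARD HyperOva also contains an antiserum that blocks inhibin, so the agents cannot be told apart here. The 8 mice without hyperovulation (2moNoH6 to 2moNoH13) were not injected, and their cycle stage is not given. Each library was a pool of the cumulus cells around 1 germinal vesicle stage oocyte, freed from a dissected follicle in medium with IBMX, which blocks the breakdown of cyclic AMP. Every mouse gave 4 complexes except 2mo34, which gave 8. Libraries were processed on 2 plates: B1 held 3 mice with and 4 without hyperovulation, and B2 held 2 with and 4 without.

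Equine chorionic gonadotropin is used in rodents in place of follicle-stimulating hormone, FSH. FSH acts on granulosa cells through the receptor FSHR, which raises cyclic AMP. Growth of antral follicles, aromatase, inhibin and activin subunits and the uptake of glucose and cholesterol are known parts of the granulosa response. Cumulus cells are the granulosa cells that stay around the oocyte, to which they are joined by gap junctions and to which they supply metabolites and signals that hold meiosis.

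Library totals ranged from 510029 to 1147290 counts with hyperovulation and from 624462 to 1127710 without (medians 854936 and 863415, exact two-sided permutation test over 13 mice, p = 0.993). The cells carried their defining markers. All 12 cumulus or granulosa markers averaged at least 1 CPM (counts scaled to a fixed library total), and the 13 oocyte markers summed to 9.23 to 25.6 CPM with and 9.82 to 39.4 CPM without hyperovulation, against 19937 to 23096 CPM in the oocytes of the same complexes. P values of the marker lists were not adjusted for the number of lists. The summed cumulus or granulosa markers were higher with hyperovulation (means 8350 and 6147 CPM, exact permutation p = 0.0311). Within plates these sums did not pass (exact permutation p = 0.114 on B1 and 0.133 on B2). Without 1 member, the inhibin βB gene Inhbb, the sums did not differ beyond their spread (4933 and 5008 CPM, exact permutation p = 0.883). Ovarian surface epithelium markers, mostly Krt8, were lower with hyperovulation (18.6 to 27.3 against 23.3 to 54.6 CPM, exact permutation p = 0.0334), and the means differed in the same direction on plate B1 (21.6 and 39.5 CPM) and on plate B2 (21.4 and 26.6 CPM). Neither plate alone passed (exact permutation p = 0.0857 on B1 and 0.133 on B2, where the test could not reach the threshold). Of the 5 surface epithelium markers found, 3 averaged under 1 CPM and Msln was at 0 in every mouse, and the part of these cells in the results was not tested. Markers of mural granulosa or luteal cells, theca or stroma, endothelium, immune cells and erythrocytes gave exact permutation p values from 0.194 to 0.743.

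In a principal component analysis of log10(RPKM + 1), RPKM being a depth- and length-scaled level, over 26063 genes, the first component, PC1, accounted for 8.54% of the spread. The mouse means on it were 1.75 to 10.6 with hyperovulation and -15 to 4.83 without. The groups overlapped, but their means (6.23 and -5.2) differed by 11.4, and an exact two-sided permutation test over mice gave p = 0.00777, or 0.0155 adjusted over PC1 and PC2. This test shuffled mice across plates. The sign of a component is arbitrary. The difference was 9.56 within plate B1, where it did not pass (exact permutation p = 0.0571, smallest possible 0.0286). It was 11.8 within plate B2, where the test could not reach the threshold (exact permutation p = 0.0667, the smallest possible). PC2 scores differed by 4.02 over both plates (exact permutation p = 0.361, adjusted 0.361). Within plate B1 they differed by 8.59 (exact permutation p = 0.0571, smallest possible 0.0286). Within plate B2 they differed by 0.89 (exact permutation p = 0.533). Scores also differed between plates. With hyperovulation, PC1 means were 9.15 on B1 and 1.86 on B2, and PC2 means -0.478 and 6.73. Without it, PC1 means were -0.409 and -9.98, and PC2 means -9.07 and 5.84. Neither component thus measures hyperovulation alone. The complexes of 1 mouse lay at a mean distance, as 1 minus Spearman's correlation over 9669 genes, of 0.0873 ± 0.0195 (SD, n = 5 mice) with and 0.107 ± 0.0249 (SD, n = 8) without hyperovulation. This difference did not pass (exact permutation p = 0.155).

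**Figure D1:**
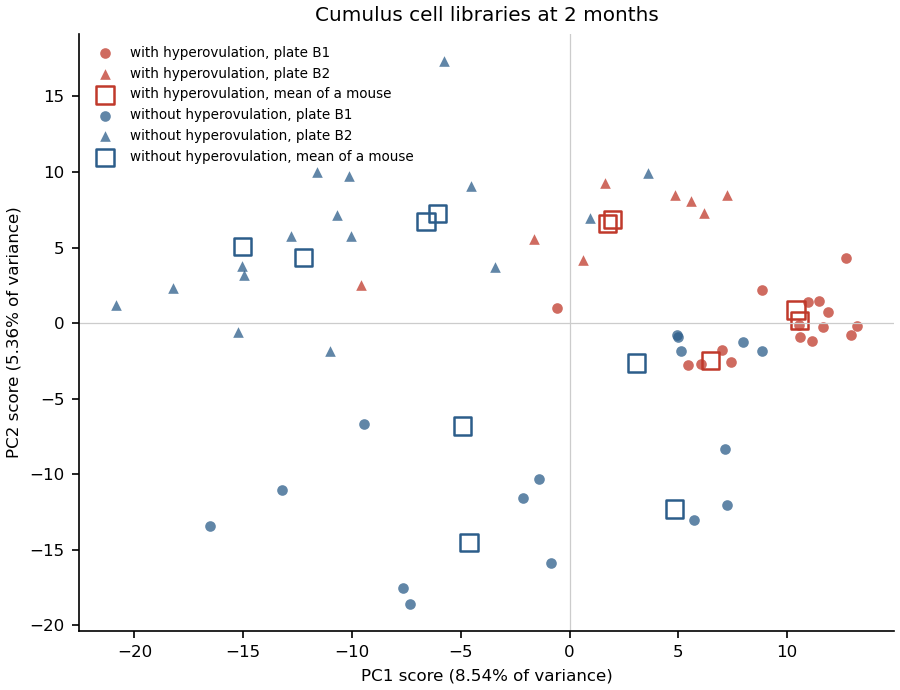
Scores of the 56 cumulus cell libraries on PC1 (horizontal) and PC2 (vertical), with red for hyperovulation, blue for none, circles for plate B1, triangles for plate B2 and open squares for the mean of each mouse. The 5 red squares sit at PC1 scores from 1.75 to 10.6 and the 8 blue squares from -15 to 4.83.

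Counts were summed per mouse and tested over 13 mice with the plate as a covariate (edgeR's quasi-likelihood test, false discovery rate of 5%). Of 25828 genes, 365 rose with hyperovulation (1.41%) and 250 fell (0.968%). Among the 9662 genes with a mean of at least 10 CPM, 295 rose (3.05%) and 175 fell (1.81%), and the median log2 fold change of all of them was 0.01. The mice of the groups did not overlap for 190 of the 9662 genes (1.97%), and 142 of these were among the 470 that passed. The rises had a median log2 fold change of 0.70 and 45 of them were at least 2-fold. The falls had a median of -0.91 and 73 were at least 2-fold. Because each library was a pool, fewer cells of a kind and less RNA per cell cannot be told apart. Nothing states whether the mice of a group were littermates or were processed on the same day, so p-values measure the spread between these mice. The count of genes depended on the mice: it was 209 without 2mo36, 316 without 2mo34, 362 without 2mo1, 368 without 2mo35, 400 without 2mo2 and 390 without 2moNoH8.

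**Figure D2:**
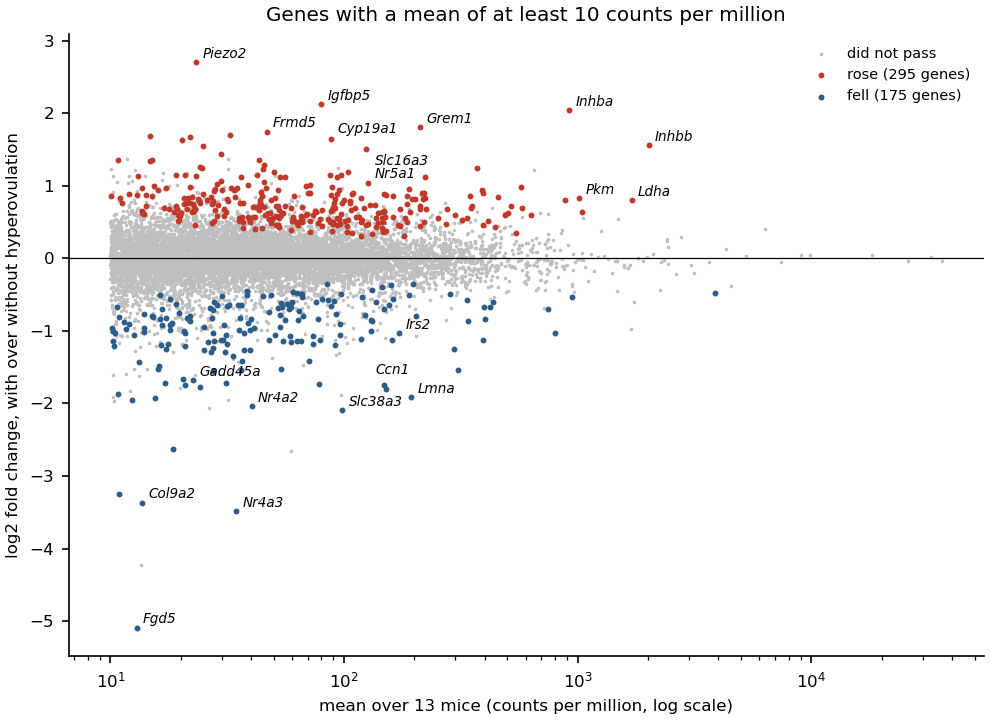
Mean level over 13 mice in CPM (horizontal, log scale) against log2 fold change with over without hyperovulation (vertical) for the 9662 genes with a mean of at least 10 CPM. Red points are the 295 genes that rose, blue points the 175 that fell and grey points those that did not pass, and Piezo2 at 2.71 and Fgd5 at -5.09 lie at the ends.

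The FSH receptor and the enzyme that makes oestrogen were higher with hyperovulation. Fshr (chr17:88984952-89200675 in GRCm38) stood at 122, 149, 142, 128 and 125 CPM in mice 2mo1, 2mo2, 2mo34, 2mo35 and 2mo36, and in the mice without hyperovulation its lowest, median and highest levels were 25.5, 75.5 and 100.3 CPM. Every mouse with hyperovulation was above every mouse without. The 1.93-fold rise passed narrowly (log2 fold change 0.95 ± 0.23 SE, edgeR adjusted p = 0.0391), and leaving out any of 2mo1, 2mo2, 2mo34, 2mo35, 2mo36, 2moNoH6, 2moNoH11, 2moNoH12 or 2moNoH13 ended the call (largest adjusted p = 0.0951) with fold changes of 0.79 to 1.07 on the log2 scale. Of the 10 gonadotropin and steroid receptors tested, Fshr was the only member to pass in edgeR, and limma voom and DESeq2 each called 2 rises. In edgeR 1.41% of all genes tested rose, and 3.05% of those of at least 10 CPM. The oestrogen receptor gene Esr2 differed by -0.31 ± 0.14 and Esr1 by 0.41 ± 0.11 (edgeR adjusted p = 0.303 and 0.0655, log2 scale). The luteinising hormone receptor gene Lhcgr, which granulosa cells gain before ovulation, was near 0 in both groups, with medians of 1.19 and 0.58 CPM and a highest level of 12.3 CPM in mouse 2mo35.

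Cyp19a1, which encodes aromatase, was at 149, 297, 103, 85.9 and 132 CPM in the mice with hyperovulation in the same order, and at 17.2, 41.9 and 103 CPM as lowest, median and highest without. The ranges overlapped, since mouse 2mo35 at 85.9 CPM lay below the highest mouse without hyperovulation at 103 CPM. It rose 3.13-fold (log2 fold change 1.65 ± 0.31, edgeR adjusted p = 0.00947), by 1.64 on plate B1 and 1.65 on plate B2, and the adjusted p reached 0.0529 without mouse 2mo36. The other 18 steroid synthesis genes tested did not pass. Hsd17b1, which converts oestrone to oestradiol, had a log2 fold change of 0.21 ± 0.15. Star and Cyp11a1, which begin steroid synthesis from cholesterol and mark luteinising cells, had 0.99 ± 0.66 (Cyp11a1) and -0.54 ± 0.23 (Star) at group means of at most 16.4 CPM. Limma voom and DESeq2 each called 3 rises in the steroid synthesis list. Among 20 granulosa transcription factors 3 rose and 1 fell, with a median of 0.34. Over all genes tested 1.41% rose and 0.968% fell, and over those of at least 10 CPM 3.05% and 1.81%. Limma voom called 7 rises and 3 falls among these factors and DESeq2 4 and 3. Nr5a1, whose protein SF-1 drives aromatase and other steroid genes, overlapped between groups across plates but not within one, with 160 CPM in mouse 2moNoH7. It rose 2.07-fold (edgeR adjusted p = 0.0159), from a median of 76.7 CPM to levels of 268, 178, 219.8, 149 and 133 CPM. Gata4, a granulosa factor that works beside it, rose 1.47-fold (edgeR adjusted p = 0.0358), but the call was lost without 9 of the 13 mice in turn, the 9 being 2mo1, 2mo35, 2mo36, 2moNoH8, 2moNoH9, 2moNoH10, 2moNoH11, 2moNoH12 and 2moNoH13 (largest adjusted p = 0.146).

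The subunits of activin were among the genes that differed most, and the subunit they share in inhibin was not. Inhibins pair the α subunit of Inha with a βA (Inhba) or βB (Inhbb) subunit, and activins are made of β subunits alone. Inhba was at 2361, 1284, 1984, 1902 and 1090 CPM in the mice with hyperovulation, and at 69.9, 296 and 976 CPM as lowest, median and highest without. The groups did not overlap. The rise was 4.12-fold (log2 fold change 2.04 ± 0.44, edgeR adjusted p = 0.0239), and the adjusted p reached up to 0.0828 without 2mo1, 2mo34, 2mo35 or 2mo36, with fold changes of 1.83 to 2.29 over all 13 mice left out in turn. Inhbb was at 4433, 3445, 4264, 2742 and 2304 CPM with hyperovulation and at 571, 892 and 2684 CPM without. It rose 2.95-fold (log2 fold change 1.56 ± 0.26, edgeR adjusted p = 0.0061), and the call held without each mouse in turn. Inha was at 3742, 2826, 3574, 2593 and 2251 CPM with and 1897, 3072 and 4048 CPM without hyperovulation, a log2 fold change of -0.09 ± 0.14 (edgeR adjusted p = 0.821). Per length, the median library held 319 RPKM of Inhba and 947 RPKM of Inhbb beside 2050 RPKM of Inha with hyperovulation, and 11.7, 143 and 2251 RPKM without. The median levels of the β subunits thus lay below that of Inha in both groups.

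A secreted blocker of bone morphogenetic proteins, which the cumulus is known to make in response to the oocyte, was also higher. Its gene, Grem1, was at 456, 384, 359, 381 and 318 CPM with hyperovulation and at 25.8, 93.8 and 239 CPM without, and the groups did not overlap. It rose 3.52-fold (edgeR adjusted p = 0.0221), a call lost without 2mo1, 2mo35 or 2mo36 (largest adjusted p = 0.0669, log2 fold changes of 1.65 to 2.15). Inhba, Inhbb and Grem1 were among the 4 members that rose of 32 inhibin, activin, AMH and BMP signalling genes, none fell, and the list's median was 0.10. Rises made up 1.41% of all genes tested and 3.05% of those of at least 10 CPM. Amh, the anti-Müllerian hormone that marks smaller follicles and the cumulus, was at 23.4, 107, 36, 259 and 232 CPM with and 122, 242 and 409.6 CPM without hyperovulation. Its difference ran in opposite directions on the plates (log2 fold change -2.44 on B1 and 0.31 on B2) and did not pass (edgeR adjusted p = 0.309). On B2 the complexes of 1 mouse spread widely, at 11.2, 7.22, 819 and 60.6 CPM in 2mo35 and 406, 45.4, 363 and 11.7 CPM in 2mo36. Mice without hyperovulation on B2 spread as well, as 2moNoH12 at 243, 70.1, 16.8 and 587 CPM. The activin binder Fst had a log2 fold change of 0.39 ± 0.16 (edgeR adjusted p = 0.254).

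**Figure D3:**
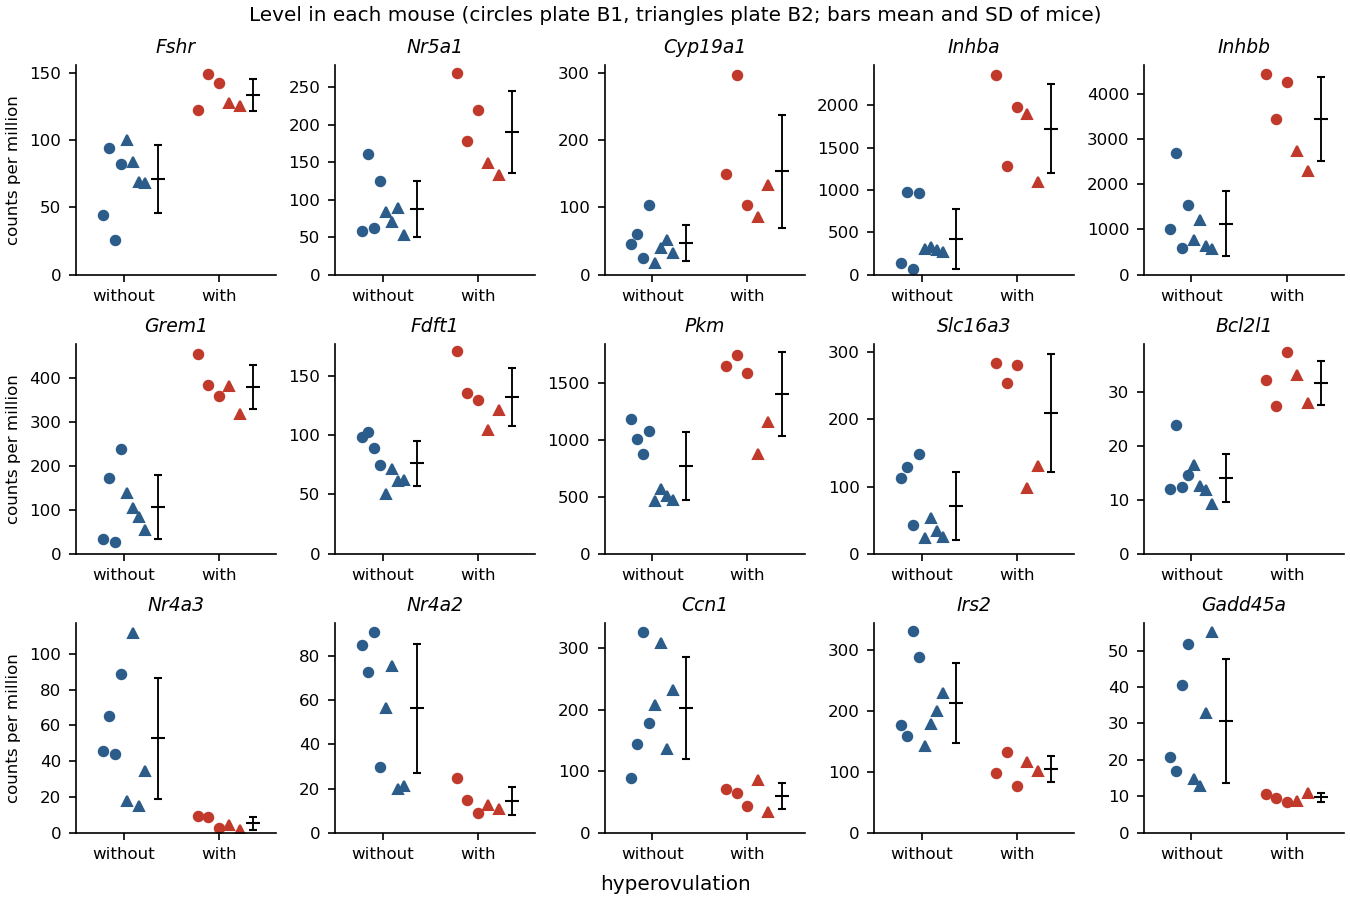
Level of 15 genes in each mouse in CPM (vertical, from 0) without (blue) and with (red) hyperovulation, with circles for plate B1, triangles for plate B2 and bars for the mean and SD of the mice. Inhba lies between 69.9 and 976 CPM without and between 1090 and 2361 CPM with hyperovulation, and Nr4a3 between 15 and 112 and between 1.43 and 9.48 CPM.

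Genes of cholesterol synthesis and uptake were higher with hyperovulation as a list. All 24 had a log2 fold change above 0, with a median of 0.60 against -0.02 over all genes tested. Beside rises in 1.41% of all genes tested and 3.05% of those of at least 10 CPM, 8 of the list rose. These included Mvk, Fdps, Fdft1, Sqle, Nsdhl and Dhcr7, which encode enzymes of the pathway from mevalonate to cholesterol. Cumulus cells are known to make cholesterol for the oocyte, which makes little of its own. Fdft1, encoding squalene synthase, was at 171, 135, 129.7, 104 and 121 CPM with and 50.2, 73.0 and 102 CPM without hyperovulation, with no overlap (1.69-fold, edgeR adjusted p = 0.0034). Calls were lost for Dhcr7 without 2mo2, 2mo34, 2mo35, 2mo36, 2moNoH8 or 2moNoH12 and for Sqle without 2mo35 or 2mo36 (largest edgeR adjusted p = 0.134 and 0.097). The list's median was 0.33 on plate B1 and 0.92 on plate B2, and the number that rose was 2 without mouse 2mo36, 1 when the plate term was left out and 13 in both limma voom and DESeq2.

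Glycolysis had the largest number of members that rose of the 21 lists examined. Of 21 genes of glycolysis and glucose uptake 13 rose and 1 fell, against 1.41% and 0.968% of all genes tested, and the median log2 fold change was 0.56. Among genes of at least 10 CPM 3.05% rose and 1.81% fell. Cumulus cells are known to break down glucose for the oocyte, which takes up the pyruvate they release. Pkm, encoding pyruvate kinase, was at 1655, 1747, 1595, 875 and 1156 CPM with and 467, 720.5 and 1187 CPM without hyperovulation. It rose 1.78-fold (log2 fold change 0.83 ± 0.10, edgeR adjusted p = 0.00132). The levels of both groups were lower on plate B2, and the groups overlapped across plates but not within one. The log2 fold change was 0.68 within B1 and 1.01 within B2. Pgk1, encoding phosphoglycerate kinase, was at 232, 246, 215, 155 and 211 CPM with and 84.0, 108 and 154 CPM without (1.84-fold, edgeR adjusted p = 0.0034). The glucose transporter gene Slc2a1 rose 1.85-fold (edgeR adjusted p = 0.00437). The lactate exporter gene Slc16a3 rose 2.86-fold, from a median of 47.7 CPM to 283, 254, 282, 97.7 and 131 CPM (edgeR adjusted p = 0.00451). Its groups overlapped across plates but not within one, with 149 CPM in mouse 2moNoH9. The A and B subunits of lactate dehydrogenase moved apart: Ldha, the form that favours lactate, rose 1.74-fold (edgeR adjusted p = 0.00527) and Ldhb was 1.52-fold lower (edgeR adjusted p = 0.00854). Ldha was at 2508, 2602, 2451, 1675 and 2346 CPM with and 773, 1264 and 1907 CPM without hyperovulation, and Ldhb at 91.0, 83.6, 89.5, 149 and 98.6 CPM with and 129, 158 and 213 CPM without. These calls on Pkm, Pgk1, Slc2a1, Slc16a3, Ldha and Ldhb held without each mouse in turn, and between 9 and 14 of the list rose in those fits. With the plate term left out, 2 rose.

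Hypoxia and angiogenesis genes had a median log2 fold change of 0.61, and 6 of 17 rose. Among all genes tested 1.41% rose, and among those of at least 10 CPM 3.05%. Vegfa, the main signal for vessel growth around a follicle, was at 1069, 823, 857, 507 and 599 CPM with and 282, 416 and 748 CPM without hyperovulation (1.61-fold, edgeR adjusted p = 0.0105, and 0.0574 without mouse 2mo36). P4ha2, a collagen prolyl hydroxylase, rose 2.28-fold (edgeR adjusted p = 0.0271), a call lost when any of the 5 mice with hyperovulation was left out (largest adjusted p = 0.0898, log2 fold changes of 1.02 to 1.37). The oxygen sensor gene Egln1 rose 1.59-fold with no overlap between groups (edgeR adjusted p = 0.0178, and up to 0.0803 without 2mo1 or 2mo36). The list had no member that rose without mouse 2mo36, and 1 without the plate term. Hif1a itself had a log2 fold change of 0.51 ± 0.15 (edgeR adjusted p = 0.0843).

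The falls included immediate early genes, which cells switch on within minutes of a stimulus without new protein synthesis. Of 30 such genes 12 fell and none rose, and 28 had a log2 fold change below 0, with a median of -0.72 against -0.02 over all genes. Falls made up 0.968% of all genes tested and 1.81% of those of at least 10 CPM. The NR4A family, nuclear receptors that cyclic AMP induces, fell at all 3 members. Nr4a3 (chr4:48045153-48086447) was at 9.48, 8.96, 2.44, 4.11 and 1.43 CPM with hyperovulation and at 15, 44.9 and 112 CPM without, with no overlap. It was 11.2-fold lower (log2 fold change -3.48 ± 0.53, edgeR adjusted p = 0.0037). Nr4a2 (chr2:57106830-57124003) was at 24.7, 14.6, 9.01, 12.6 and 10.9 CPM with and 19.6, 64.8 and 90.7 CPM without, and was 4.11-fold lower (edgeR adjusted p = 0.00854). Nr4a1 (chr15:101254269-101274795) was at 491, 199, 269.6, 200.3 and 72.3 CPM with and 210.2, 476 and 838 CPM without (2.17-fold lower, edgeR adjusted p = 0.0456). The first 2 calls held without each mouse in turn, and that on Nr4a1 was lost without 2mo2, 2mo34, 2mo35, 2mo36, 2moNoH6, 2moNoH8, 2moNoH10, 2moNoH11 or 2moNoH13 (largest adjusted p = 0.14). Where libraries were fitted on their own with an estimated correlation within mice, adjusted p was 0.123 for Nr4a3 and 0.114 for Nr4a2 (limma voom). Some mouse levels without hyperovulation rested mainly on 1 complex. In 2moNoH7 the complexes held 1.07, 6.47, 297 and 9.03 CPM of Nr4a3 and 9.67, 1.29, 326 and 10.2 CPM of Nr4a2. Others were more even, as 2moNoH13 with 7.06, 48.5, 37.7 and 33.2 CPM of Nr4a3.

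Because the 3 genes moved together, their promoters are shown, from RefSeq's GRCm38.p6 table of windows from 250 bases before to 50 after a gene's start, on the gene's strand. Capitals mark TGACG or its reverse complement CGTCA, the core of the element that the cyclic AMP response factor CREB binds, and overlapping or adjoining matches run together. The windows are chr15:101266596-101266895 on the plus strand for Nr4a1, chr2:57123954-57124253 on the minus strand for Nr4a2 and chr4:48045055-48045354 on the plus strand for Nr4a3.
Nr4a1: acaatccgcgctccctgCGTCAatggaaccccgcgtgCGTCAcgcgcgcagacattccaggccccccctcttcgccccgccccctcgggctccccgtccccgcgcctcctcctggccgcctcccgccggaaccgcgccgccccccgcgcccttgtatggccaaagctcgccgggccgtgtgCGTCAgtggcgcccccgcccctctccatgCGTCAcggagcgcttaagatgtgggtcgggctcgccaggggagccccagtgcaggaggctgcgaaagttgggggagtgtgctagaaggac
Nr4a2: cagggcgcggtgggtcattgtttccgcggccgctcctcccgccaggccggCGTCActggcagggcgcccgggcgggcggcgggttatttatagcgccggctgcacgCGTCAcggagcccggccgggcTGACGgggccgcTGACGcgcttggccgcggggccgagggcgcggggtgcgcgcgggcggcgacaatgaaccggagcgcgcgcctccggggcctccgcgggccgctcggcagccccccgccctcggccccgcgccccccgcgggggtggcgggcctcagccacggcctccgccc
Nr4a3: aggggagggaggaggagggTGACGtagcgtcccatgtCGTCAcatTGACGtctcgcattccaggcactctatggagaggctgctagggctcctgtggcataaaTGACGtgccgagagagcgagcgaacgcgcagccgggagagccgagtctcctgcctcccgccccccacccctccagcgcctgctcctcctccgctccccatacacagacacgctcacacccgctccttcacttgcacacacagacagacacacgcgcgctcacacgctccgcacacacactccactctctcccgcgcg
Each window held 4 matches, and those of Nr4a1 and Nr4a3 lie at starts inside the annotated spans of the genes. At least 1 match on either strand was present in 23.1% of the 27025 genes in the table, in 38.8% of the 6984 genes of at least 10 CPM that were in it, and in 17 of the 23 immediate early genes found there (73.9%). It was present in 37.2% of the 148 genes that fell and were found and in 22.9% of the 201 that rose and were found. The match describes letters and not a bound site. The share among genes that fell was near that of the genes at this level, and the share among genes that rose was lower, which was not tested. These shares count at least 1 match and give no background for 4 matches in a window.

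Other members fell as well. Ccn1, a secreted matrix protein gene that mechanical and serum signals induce, was at 70.8, 64.8, 43.5, 85.6 and 34 CPM with and 88.5, 193 and 326 CPM without hyperovulation, with no overlap (3.34-fold lower, edgeR adjusted p = 0.00652). The stress-induced factor gene Atf3 was 2.19-fold lower (edgeR adjusted p = 0.00947) and the factor gene Klf4 2.09-fold lower (edgeR adjusted p = 0.0182, and up to 0.0788 without 2mo34, 2mo35 or 2mo36). Atf3 reached an adjusted p of 0.0737 in the limma voom fit of single libraries. The 3 most abundant members, Fos, Fosb and Egr1, did not pass. Fos was at 2877, 1520, 2992, 1818 and 1774 CPM with and 434, 2177 and 3632 CPM without, a log2 fold change of 0.06 ± 0.39, and Egr1 had -0.09 ± 0.29 (edgeR adjusted p = 0.97 and 0.93). Fosb had -0.61 ± 0.20 (edgeR adjusted p = 0.127). The number of the list that fell was 5 without mouse 2mo34, 5 with the plate term left out and 7 in the limma voom fit of single libraries.

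Of 15 cell cycle inhibitors and p53 genes tested 1 rose and 3 fell, with a median log2 fold change of 0.15. Over all genes tested 1.41% rose and 0.968% fell, and over those of at least 10 CPM 3.05% and 1.81%. The growth arrest genes Gadd45a and Gadd45b, which stress induces, fell, and their relative Gadd45g rose. The antiproliferative gene Btg2 was 1.78-fold lower (edgeR adjusted p = 0.0369), a call lost without 2mo1, 2mo2, 2mo34, 2mo36, 2moNoH8, 2moNoH9, 2moNoH10 or 2moNoH11 (largest adjusted p = 0.136) and in the limma voom fit of single libraries (adjusted p = 0.0728). Gadd45a was at 10.7, 9.55, 8.40, 8.74 and 10.9 CPM with hyperovulation and at 12.8, 26.8 and 55.2 CPM without, with no overlap (3.20-fold lower, edgeR adjusted p = 0.022). The spread between mice was narrow with hyperovulation (SD 1.13 CPM) beside that without (SD 17 CPM), and leaving out any of the 5 mice with hyperovulation ended the call (largest adjusted p = 0.0669, log2 fold changes of -1.79 to -1.48). Gadd45b was at 20.5, 7.76, 15.7, 10.5 and 14.0 CPM with and 17.8, 34.8 and 45.5 CPM without (2.40-fold lower, edgeR adjusted p = 0.0129). Gadd45g was at 49.6, 51.4, 56.5, 26.5 and 53.7 CPM with and 16.7, 24.9 and 36.7 CPM without (1.80-fold higher, edgeR adjusted p = 0.0279), a call lost without 2mo1, 2mo2, 2mo34, 2mo36 or 2moNoH8 (largest adjusted p = 0.139).

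Of 30 cyclin and division genes 2 rose and none fell, with a median log2 fold change of 0.37 and 26 above 0. Rises made up 1.41% of all genes tested and 3.05% of those of at least 10 CPM, and 12292 of the 25828 genes tested were above 0. Rrm2, a subunit of the enzyme that makes deoxynucleotides, rose 1.49-fold and the spindle motor gene Kif11 1.37-fold (edgeR adjusted p = 0.0243 and 0.0337). Both calls were lost without some mice, Rrm2 without 2mo2 or 2mo36 and Kif11 without 2mo1, 2mo2, 2mo34, 2mo35, 2mo36, 2moNoH7, 2moNoH8, 2moNoH9, 2moNoH12 or 2moNoH13 (largest adjusted p = 0.117 and 0.127). Single libraries in limma voom gave 18 rises in this list, DESeq2 gave 7, and edgeR gave 0 without the plate term or without mouse 2mo2. The 32 DNA replication genes had a median of 0.23, which was 0.06 on plate B1 and 0.41 on plate B2, with 30 above 0. None of them passed in edgeR, where 5 had an unadjusted p under 0.05, while DESeq2 called 1 and limma voom 4. Ccnd2, the cyclin through which FSH drives granulosa division, was at 756, 632, 804, 849 and 737 CPM with and 575, 626 and 1354 CPM without hyperovulation, a log2 fold change of -0.04 ± 0.17 (edgeR adjusted p = 0.947).

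Survival and insulin signalling genes gave single calls. Bcl2l1, whose main product BCL-XL protects cells from apoptosis, was at 32.2, 27.5, 37.4, 33.2 and 28 CPM with and 9.20, 12.4 and 23.8 CPM without hyperovulation, with no overlap (2.22-fold higher, edgeR adjusted p = 0.0037, kept without each mouse). Of 23 apoptosis and atresia genes it was joined among the rises only by Igfbp5, a binder of insulin-like growth factors. Igfbp5 was at 21.8, 174, 93.8, 91.3 and 387 CPM with and 10.7, 34.1 and 66.7 CPM without. Its 4.37-fold rise (edgeR adjusted p = 0.0333) was lost without 2mo2, 2mo34, 2mo36, 2moNoH9, 2moNoH11, 2moNoH12 or 2moNoH13 (largest adjusted p = 0.179, log2 fold changes of 1.46 to 2.44) and in the limma voom fit of single libraries (adjusted p = 0.194). Irs2, the adaptor that carries the insulin and IGF signal to phosphoinositide 3-kinase, was at 98.3, 133, 76.4, 116 and 101 CPM with and 143, 189 and 332 CPM without, with no overlap (2.05-fold lower, edgeR adjusted p = 0.0103, kept without each mouse). The insulin receptor gene Insr was 1.62-fold lower (edgeR adjusted p = 0.028, and up to 0.114 without 2mo34, 2mo35, 2mo36 or 2moNoH8). The 19 insulin and IGF signalling genes held 1 rise and 2 falls, with a median of -0.12. Over all genes tested 1.41% rose and 0.968% fell, and over those of at least 10 CPM 3.05% and 1.81%. Pik3ip1, an inhibitor of phosphoinositide 3-kinase, was among the 12 largest falls at 3.16, 2.39, 4.89, 6.68 and 3.72 CPM with and 9.19, 15.9 and 29.4 CPM without (3.86-fold lower, edgeR adjusted p = 0.00241).

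Large changes were also seen outside these lists. Piezo2, a mechanically gated ion channel gene, was at 14.2, 74.1, 65.1, 20.3 and 70 CPM with and 2.30, 6.43 and 16.1 CPM without hyperovulation. The groups overlapped only by mouse 2mo1, and the 6.53-fold rise passed (log2 fold change 2.71 ± 0.45, edgeR adjusted p = 0.00548). Frmd5, a membrane-associated FERM domain protein gene, was at 62.3, 96.4, 96.5, 72.5 and 83.7 CPM with and 13.5, 24.6 and 38.2 CPM without, and its log2 fold change was 1.75 on plate B1 and 1.74 on plate B2 (3.36-fold, edgeR adjusted p = 0.00179). Cox4i2, a cytochrome c oxidase subunit form that low oxygen induces in other tissues, was at 50.6, 43.0, 48.0, 25.2 and 25.2 CPM with and 4.32, 8.50 and 25.1 CPM without (3.21-fold, edgeR adjusted p = 0.00499). The copper oxidase gene Hephl1 and the sulfotransferase gene Chst15 rose 3.23-fold and 2.93-fold without overlap (edgeR adjusted p = 0.0113 and 0.00652).

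Fgd5, encoding an exchange factor for the small GTPase CDC42, was at 0, 0, 0.764, 0.257 and 1.43 CPM with and at 6.91, 19.2 and 44.0 CPM without hyperovulation. It had no count in 21 of the 24 libraries with hyperovulation and in 7 of the 32 without, and was 34.1-fold lower (log2 fold change -5.09 ± 0.62, edgeR adjusted p = 0.00134). Col9a2, a chain of type IX collagen, was at 0.948, 1.49, 1.07, 3.86 and 2.00 CPM with and 7.47, 18.2 and 38.7 CPM without (10.3-fold lower, edgeR adjusted p = 0.000863). Lmna, encoding lamins A and C of the nuclear envelope, was at 124, 98.8, 58.3, 48.6 and 44.0 CPM with and 115, 197 and 635 CPM without (3.77-fold lower, edgeR adjusted p = 0.00393). These 3 falls held without each mouse in turn. Slc38a3, an amino acid transporter that marks the cumulus over the mural granulosa, was at 7.90, 10.2, 26.6, 88.4 and 24 CPM with and 15.5, 162 and 242 CPM without, and the call on its 4.27-fold fall was lost without 10 of the 13 mice in turn (edgeR adjusted p = 0.0456, at most 0.153 without 2mo1, 2mo2, 2mo34, 2mo36, 2moNoH7, 2moNoH9, 2moNoH10, 2moNoH11, 2moNoH12 or 2moNoH13).

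Several functions of the cumulus gave few calls or none in edgeR. Over all genes tested 1.41% rose and 0.968% fell, and over those of at least 10 CPM 3.05% and 1.81%. Of 18 genes of cumulus expansion and the ovulatory response none passed in edgeR, with 4 at an unadjusted p under 0.05, and limma voom called 1 rise and DESeq2 1 fall. Has2, Ptgs2, Ptx3 and Tnfaip6, which the ovulatory surge induces, had medians under 6 CPM in both groups. Of 19 genes of Kit ligand, meiotic arrest and gap junctions 1 rose in edgeR, while limma voom and DESeq2 each called 4 rises and 1 fall. The rise in edgeR was Gucy1a1, a subunit of soluble guanylate cyclase, at 91.0, 98.2, 85.8, 91.0 and 123 CPM with and 36.2, 50.1 and 71.7 CPM without hyperovulation (1.87-fold, edgeR adjusted p = 0.00607). Npr2, the receptor whose cyclic GMP holds meiosis, had a log2 fold change of 0.63 ± 0.18, and Gja1, which forms gap junctions, 0.41 ± 0.11 (edgeR adjusted p = 0.0774 and 0.0734). Kitl and Nppc had -0.33 ± 0.33 and 0.17 ± 0.38 (edgeR adjusted p = 0.695 and 0.884). Of 21 Wnt and Notch genes 1 rose in edgeR and 2 each in limma voom and DESeq2. It was the Notch target Hey2 (1.84-fold, no overlap, edgeR adjusted p = 0.0423, lost without 9 of the mice in turn with a largest adjusted p of 0.146, those 9 being 2mo1, 2mo2, 2mo34, 2mo35, 2mo36, 2moNoH6, 2moNoH11, 2moNoH12 and 2moNoH13). Of 25 matrix and basement membrane genes Nid2 and Timp2 rose and Col4a5 and Mmp2 fell, with a median of -0.57 that was -0.70 on plate B1 and -0.06 on plate B2. Limma voom called 3 rises and 5 falls in this list and DESeq2 3 and 3. The call on Timp2 was lost without 2mo34 or 2mo36, that on Col4a5 without 2mo1, 2mo2, 2mo35 or 2moNoH8, and that on Mmp2 without 2mo1, 2mo2, 2mo34, 2mo35, 2mo36, 2moNoH6, 2moNoH8, 2moNoH9, 2moNoH11, 2moNoH12 or 2moNoH13 (largest edgeR adjusted p = 0.0894, 0.0746 and 0.173).

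Of the 25828 genes tested 13536 had a log2 fold change below 0. Falls made up 0.968% of them and 1.81% of those of at least 10 CPM. The 22 ER and integrated stress genes had 20 log2 fold changes below 0 and a median of -0.32, and 1 fell in edgeR, against 11 in limma voom and 4 in DESeq2. It was Ddit3, encoding the factor CHOP (2.03-fold lower, edgeR adjusted p = 0.0428, lost without 2mo1, 2mo34, 2mo35, 2mo36, 2moNoH8, 2moNoH9, 2moNoH12 or 2moNoH13 with a largest adjusted p of 0.152). Of 81 cytoplasmic ribosomal protein genes 78 were below 0, with a median of -0.12 (-0.04 on plate B1 and -0.22 on plate B2). In edgeR 1 fell, against 7 in limma voom and 6 in DESeq2. It was Rpl22l1 (edgeR adjusted p = 0.035, lost without 2mo1, 2mo2, 2mo34, 2mo35, 2mo36, 2moNoH8, 2moNoH10, 2moNoH11, 2moNoH12 or 2moNoH13 with a largest adjusted p of 0.125). None of 16 interferon response genes and none of 13 mitochondrially encoded messenger RNAs passed in edgeR, DESeq2 or limma voom, with 3 and 0 at an unadjusted edgeR p under 0.05.

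**Figure D4:**
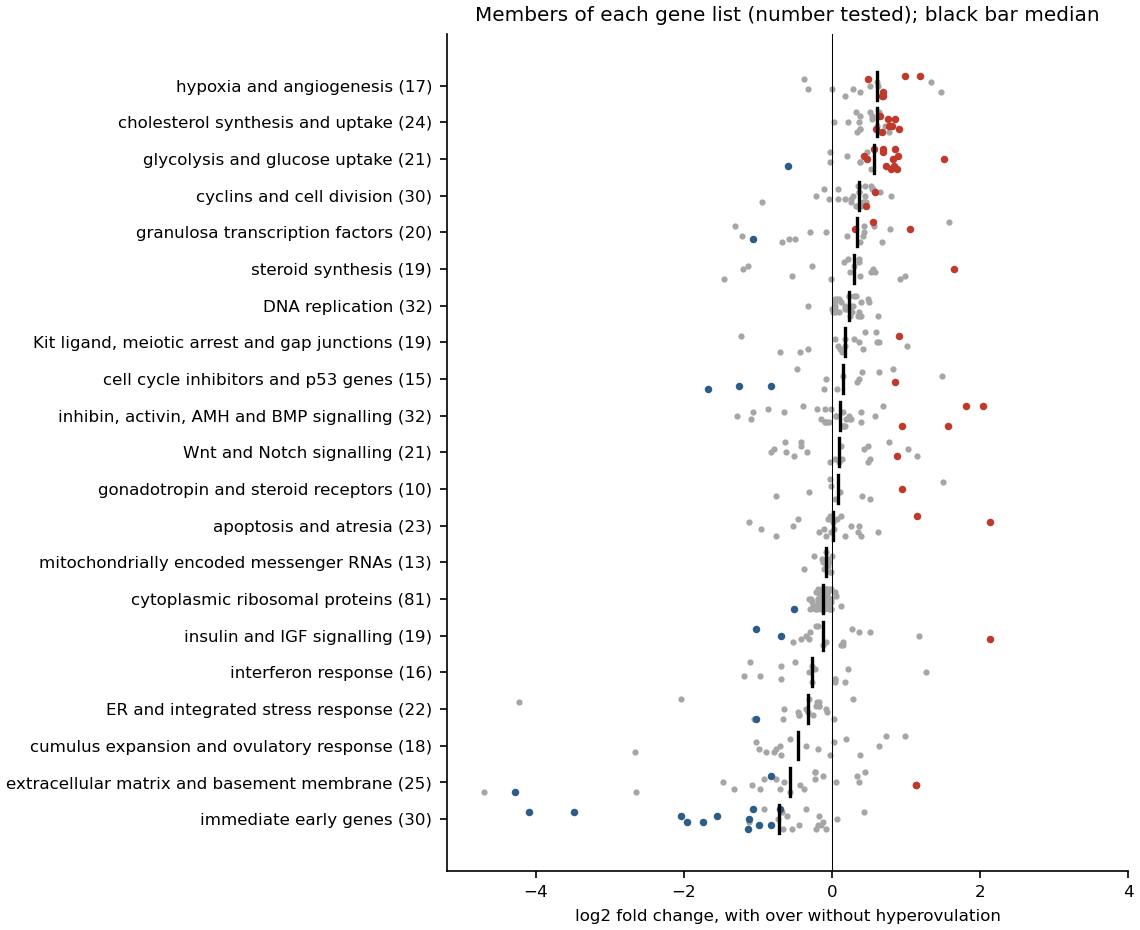
Log2 fold change with over without hyperovulation (horizontal) of each member of the 21 gene lists (rows, with the number tested), in red where it rose, in blue where it fell and in grey where it did not pass, with a black bar at the median. The medians run from -0.72 for immediate early genes to 0.61 for hypoxia and angiogenesis.

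The complexes of 1 mouse were not alike. Over single libraries, Inhba ran from 23.3 to 3682 CPM with hyperovulation (median 2101) and from 0 to 2102 CPM without (median 73.1), and 1 of the 32 libraries without hyperovulation reached the median with it. Nr4a3 ran from 0 to 20.3 CPM with (median 3.88) and from 0 to 423 CPM without (median 13.3), and 25 of the 32 libraries without were at or above the median with. The difference in Nr4a3 between the groups thus came with a wide spread among libraries without hyperovulation. Among those 32 libraries of 8 mice, on log2(CPM + 1), Inhba went up with Inhbb (Spearman's rho 0.91, Pearson's r 0.89), Cyp19a1 (0.85, 0.84) and Slc16a3 (0.77, 0.68), and down with Fgd5 (-0.82, -0.82) and Nr4a3 (-0.71, -0.72). After the mean of each mouse was taken off, the values were 0.92 and 0.93 for Inhbb and -0.73 and -0.75 for Nr4a3. They were 0.89 and 0.88 for Cyp19a1 and 0.86 and 0.81 for Slc16a3. Among the 24 libraries with hyperovulation, Inhba and Inhbb gave 0.73 and 0.93, and Inhba and Fgd5 gave -0.53 and -0.62. In this group Fgd5 had counts only in libraries with Inhba at 222, 23.3 and 184 CPM, so its values rest on these. By rank, the other pairs named here were weaker there or of the opposite sign, with rho and r of -0.13 and 0.44 for Cyp19a1, 0.38 and 0.83 for Slc16a3 and -0.05 and 0.10 for Nr4a3. With the mean of each mouse taken off, Slc16a3 gave 0.77 and 0.89 with hyperovulation and Cyp19a1 gave 0.36 and 0.59. Nr4a3 gave -0.10 and -0.04. These are descriptions across complexes that share a mouse, a plate and a scaling, for genes chosen after their values were seen.

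**Figure D5:**
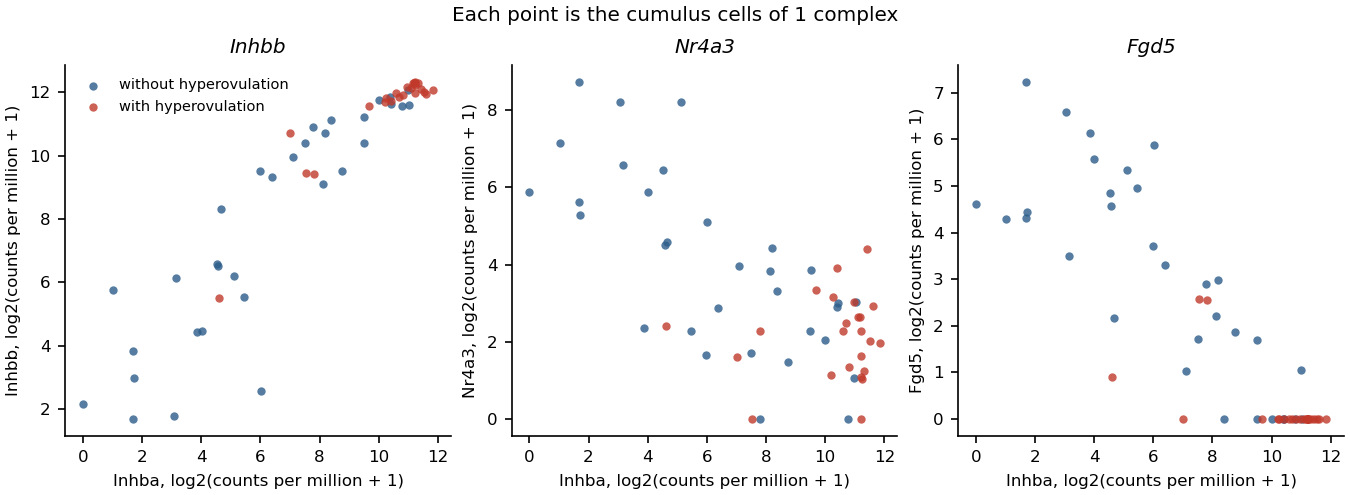
Log2(CPM + 1) of Inhba (horizontal) against that of Inhbb, Nr4a3 and Fgd5 (vertical) in each library, in blue without and in red with hyperovulation. Blue points spread over Inhba levels from 0 to 2102 CPM, while the median red point stands at 2101 CPM and 21 of the 24 red points have no Fgd5 count.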

How the data were processed

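RNA of cumulus cell pools was sequenced by RamDA-seq, a full-length method with random primers. The authors mapped reads to GRCm38 with HISAT2 2.0.5 and counted them over GENCODE genes with featureCounts 1.5.1, whose options are given only in part. The deposited values are estimated counts per gene, since multi-mapped reads were shared out and 35.1% of values above 0 were not whole, and a table of RPKM that the authors made from them. Whether counting used the strand is not given in the sources used here, so overlapping and antisense genes cannot be told apart. The deposited tables hold 42349 gene IDs, of which 42230 were found in GENCODE vM21, used for symbols and coordinates.

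The complexes of 1 mouse share an animal, so the replicate was the mouse. Estimated counts were summed per mouse (3188133 to 6554255 counts), rounded, kept where at least 5 of the 56 libraries had a count, scaled by TMM and tested in edgeR 4.0.16 (R 4.3.3) by the quasi-likelihood test with plate as covariate and Benjamini-Hochberg adjustment over 25828 genes. CPM values are those TMM-scaled levels per mouse, or per library where libraries are named. Levels of cell type markers were instead scaled by the total counts of each mouse alone, without TMM. SE is the log2 fold change divided by the root of F. Genes of few counts are measured less precisely. Single measures were compared by an exact two-sided permutation test over mice, in 1287 arrangements. The script was tested on simulated data. Some genes are not reported here. No 2 of the 56 libraries agreed within sampling noise.

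Genes named were the 12 largest rises and falls of at least 10 CPM, the 3 with the smallest p and the 2 most abundant in each of 21 gene lists, and a set of granulosa genes. Nr4a1, Slc16a3, Slc2a1, Ldhb, Atf3, Mmp2 and Dhcr7, and the other members listed as having passed, were named after their values were seen. Members and lists were chosen with earlier results of these data known. Alternatives were single libraries, limma 3.58.1 voom with a correlation within mice, no plate term, each plate alone, DESeq2 1.42.0, other scaling and filters, all cumulus groups in 1 fit, and each mouse left out. The first sequencing set holds no mice without hyperovulation and was not used here. Promoters came from RefSeq for GRCm38.p6.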

Additional observations from a re-analysis of the deposited data

Results flagged for a closer look

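Of 182 sets of mice tested, each 1 gene in 1 group, 9 had a highest or lowest mouse set far apart from the rest on the log2(CPM + 1) scale. Chance sets apart about 1 in 20 such sets. Mouse 2mo35, with hyperovulation and on plate B2, stood apart for Gadd45g at 26.5 CPM (the other 4 mice 49.6 to 56.5), for Ldha at 1675 CPM (others 2346 to 2602) and for Ldhb at 149 CPM (others 83.6 to 98.6). Each of these values lay towards the mice without hyperovulation. Btg2, an antiproliferative gene, was at 167 CPM in mouse 2mo36 (others 274 to 331). Without hyperovulation, mouse 2moNoH13 stood apart for Nppc, the ligand of the receptor NPR2, at 1.27 CPM (others 6.12 to 17.2), and for the matrix gene Ptx3 at 5.07 CPM (others 0 to 0.864). Lhcgr was at 6.87 CPM in mouse 2moNoH9 (others 0 to 1.44), the cholesterol carrier gene Stard4 at 42.9 CPM in 2moNoH10 (others 75.2 to 122.9) and Insr at 97.7 CPM in 2moNoH6 (others 152 to 215).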

How the results depend on the processing

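The count of genes changed was 615 and moved with the unit of replication and the plate. It was 3027 for single libraries (48.2% of calls higher, against 59.4%), 1934 for libraries in limma voom with an estimated correlation within mice of 0.0493, 1172 in DESeq2, 1081 with all cumulus groups in 1 fit, 223 without the plate term, 1 on plate B1 alone and 10 on plate B2 alone, where fewer mice were tested and 2475 and 2666 genes had an unadjusted p under 0.05. Leaving out each mouse in turn gave 209 to 731. Scaling by RLE gave 613 and the other filters 760 and 743. Of the 615 calls, 614 were made in the same direction for single libraries, 569 in limma voom, 591 in DESeq2 and 222 without the plate term. The cause of these moves was not tested. Of 91 genes followed by name 65 were called, 32 of them without each mouse in turn, and none of the 91 changed direction where called. Limma voom lost Nr4a2, Nr4a3, Atf3, Btg2, Igfbp5 and Slc38a3, DESeq2 lost Mmp2 and the test of single libraries lost 1 gene. The PC1 difference kept its call under other scalings and filters and without each mouse, but not within plate B1 (exact permutation p = 0.0571) or plate B2, where no call was possible. PC2 and the distance between complexes of 1 mouse stayed uncalled in these settings, within ranges of 10.5 to 13.1 for PC1, 1.45 to 5.99 for PC2 and -0.0255 to -0.0146 for the distance when mice were left out. No paired analysis was possible because the mice of the groups compared share no number. With 3188133 to 6554255 counts per mouse, genes of a few CPM rest on few counts, which limits what could be called among them.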

Other observations

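The same genes can be read in the 17 older mice of the second set, all with hyperovulation and aged 4, 9 or 14 months, scaled together with the 2-month-old mice. Age differs from the mice without hyperovulation, so the levels are set side by side with no test. Frmd5 ranged from 51.7 to 129.7 CPM in the older mice (median 81.9), Grem1 from 165 to 528 CPM (median 303), Bcl2l1 from 21.6 to 41.3 CPM (median 31.7) and Fshr from 80.7 to 163 CPM (median 119.7). For each of these 4 genes all 17 older mice were above the median of the mice without hyperovulation. Inhba ranged from 285 to 2977 CPM (median 1540) and Inhbb from 843 to 4823 CPM (median 3565), with 16 of 17 above that median. Nr4a3 ranged from 1.11 to 29.8 CPM (median 6.32) and Gadd45a from 4.23 to 12.9 CPM (median 9.75), with all 17 below it, and Fgd5 from 0 to 30.4 CPM (median 0.619), with 15 below it. Lhcgr reached 174 CPM and Cyp11a1 282 CPM in the older mice, beside highest levels of 12.3 and 36.8 CPM in 2-month-old mice with hyperovulation.

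Further genes among the 12 largest changes were the adhesion protein gene Lrrn2 (1.70 ± 0.34 on the log2 scale, edgeR adjusted p = 0.0161) and the calcium channel gene Cacna1a (1.64 ± 0.34, edgeR adjusted p = 0.0204), which rose. Ackr3, a scavenger receptor for the chemokine CXCL12 (-2.63 ± 0.66), the proteoglycan gene Cspg4 (-1.86 ± 0.39) and Igdcc4 (-1.93 ± 0.37) fell (edgeR adjusted p = 0.0456, 0.0206 and 0.0107). Gm43519, a locus annotated as to be experimentally checked, also fell (-3.25 ± 0.82, edgeR adjusted p = 0.0476), and its level cannot be told apart from that of any gene it overlaps. Of these 6, Igdcc4 alone kept its call without each mouse in turn. The calls were lost for Lrrn2 without 2mo34 or 2mo36, for Cacna1a without 2mo1, 2mo34 or 2mo35, for Cspg4 without 2mo1, 2mo2, 2mo34 or 2mo36, for Ackr3 without 9 mice in turn (each mouse with hyperovulation, 2moNoH8, 2moNoH9, 2moNoH12 and 2moNoH13) and for Gm43519 without these and 2moNoH11 (largest edgeR adjusted p = 0.0535, 0.0708, 0.0728, 0.122 and 0.148). The Igdcc4 log2 fold change was -3.02 on plate B1 and -0.73 on plate B2.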
